A study of Tupaia belangeri chinensis with 36 samples.

Results

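The entries described here are 143 of the 59590 entries in a table of piRNA counts from the tree shrew. They were selected on measured values, being entries with counts in the non-reproductive (NR) testis and next to none in the reproductive (R) testis. An entry was taken when its counts summed to at least 5 over the libraries TESTIS-NR 1 and 2 and to at most 3 over TESTIS-R 1, 2 and 3. Of the 12970 entries with at least 5 counts in TESTIS-NR, 1.10% met the second condition. The testis values that chose the entries are therefore a description, nothing is read from any fit of them, and the comparisons concern the epididymis, whose libraries the rule did not use.

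piRNAs are small RNAs that are loaded onto PIWI proteins in germ cells. They guide these proteins to transposon transcripts and other targets, and in the mammalian testis their number climbs steeply when germ cells enter meiosis. The epididymis is the duct in which sperm leaving the testis mature and are stored. Its head, the caput, receives sperm first, and its tail, the cauda, holds them until ejaculation. Whether each entry is an RNA bound by a PIWI protein was not tested.

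The animals were sexually mature male Tupaia belangeri chinensis of 1.5 to 2 years, with no treatment or genetic change named in the labels. Testis, caput and cauda were taken in mid-December 2023 (groups TESTIS-NR, CAPUT-NR and CAUDA-NR) and in mid-April 2024 (groups TESTIS-R, CAPUT-R and CAUDA-R), so season and collection date cannot be told apart. Each group had 3 biological replicates, but the third piRNA column of TESTIS-NR and that of CAPUT-NR equalled the mean of the other 2 and were left out, which leaves n = 2 in those groups and 16 measured libraries. In whole-tissue RNA, fewer cells of a type and less RNA per cell cannot be told apart.

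The libraries differed widely in depth and in the number of entries they held. The TESTIS-NR libraries had totals of 259893 and 148505 piRNA counts, those of TESTIS-R had 4151639 to 6440714, and the reproductive testis was sampled 37.0 times as deeply over the group. Caput totals were 14332 and 13360 out of season and 9367 to 195386 in CAPUT-R. Cauda totals were 67414 to 114337 out of season and 23499 to 83822 in CAUDA-R. CAUDA-NR 3 stood apart from its group, with counts at 11199 entries where CAUDA-NR 1 had 626 and CAUDA-NR 2 had 1916. The R epididymal libraries had counts at 2582 to 22782 entries. Levels are given as counts per 1000000 piRNA counts of the library (CPM), and intervals and limits cover counting error alone.

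In the testis the 143 entries together gave 3105 and 3612 counts from TESTIS-NR 1 and 2. They gave 13, 7 and 26 counts from TESTIS-R 1, 2 and 3. Their share of the piRNA counts was 1.19% and 2.43% in the NR libraries and at most 0.000574% in the R libraries. Relative to miRNA counts of the same library, which do not depend on how many other piRNAs are present, TESTIS-NR 1 had 793.3 of these counts per 1000000 and the TESTIS-R libraries had 4.73, 1.46 and 12.0. The miRNA column of TESTIS-NR 2 is an average and gives no such value. The rule fixes the direction of this drop. Both scales use the same selected counts, so the drop on the second scale adds no support.

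Of the 143 entries, 118 had 0 counts in all TESTIS-R libraries, and the other 25 shared 46 counts. A count of 0 over the TESTIS-R group allows a level of up to 0.198 CPM. At its TESTIS-NR share, the least abundant entry would have given 185.1 counts at the TESTIS-R depth. Scaled instead by miRNA counts from TESTIS-NR 1, the entries with a TESTIS-NR sum of 5 would have given 0 to 12.4 counts and the median entry 9.93. On that scale 43 of the 143 would have given under 3 counts, 24 of them because TESTIS-NR 1 had none, so for these a low TESTIS-R count says little. Just inside the thresholds lay 26 entries with a TESTIS-NR sum of 5 and 6 entries with a TESTIS-R sum of 3. Just outside lay 21 entries with a TESTIS-NR sum of 4 and 7 with a TESTIS-R sum of 4. The TESTIS-NR sums ran from 5 to 1734 counts with a median of 13, and 86 entries had at least 10. edgeR tested 67 of the 143 between the testis groups and called all 67 lower and 0 higher in R, where 0.519% of the 40091 entries tested were called lower and 0.399% higher. The rule used this contrast, so nothing is read from that count.

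**Figure D1:**
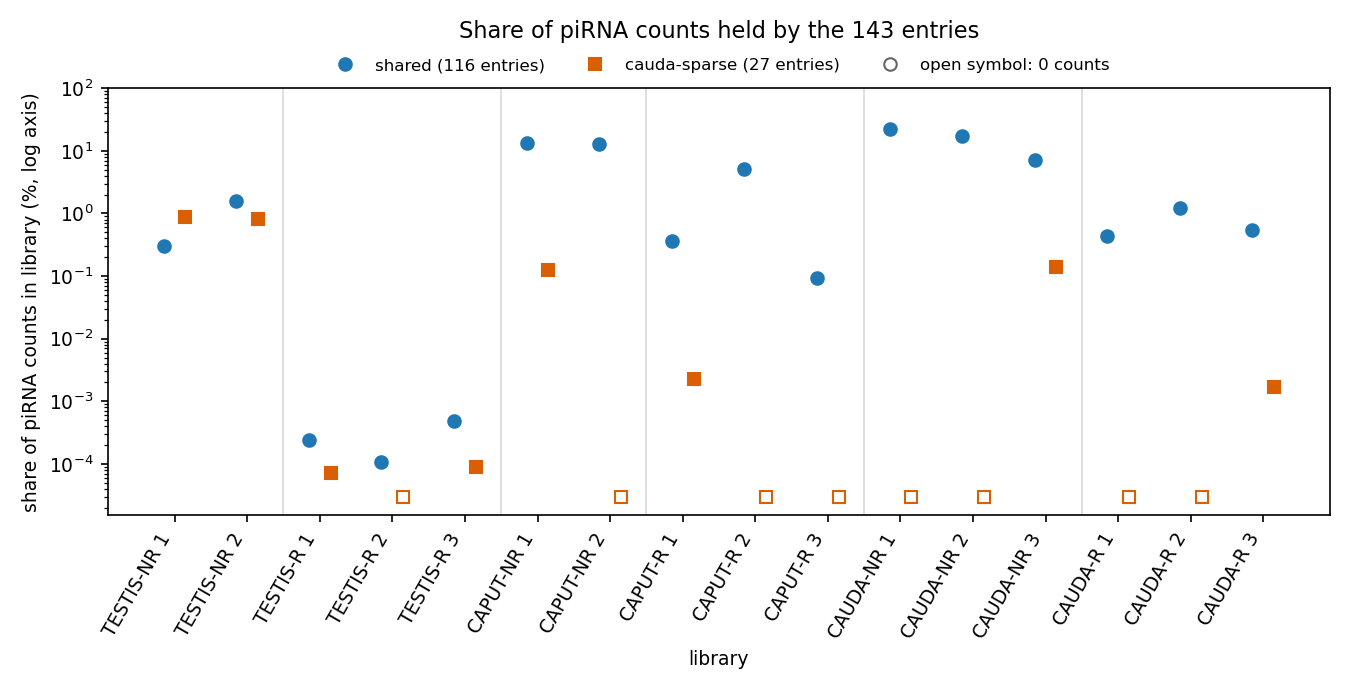
Share of each library's piRNA counts (percent, log axis) held by 116 entries also present in the NR cauda (circles) and by 27 entries with 0 counts in CAUDA-NR 1 and 2 (squares), for the 16 measured libraries; open symbols mark 0 counts. The circles stand highest in the NR epididymis, between 7.05% and 22.0%, and the squares in TESTIS-NR, at 0.892% and 0.824%.

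Across the epididymis the entries fell into 2 patterns, which were separated after the counts had been seen and so carry no test. The first pattern holds 27 entries with 0 counts in CAUDA-NR 1 and CAUDA-NR 2 and is called cauda-sparse, a name for that definition alone, since 13 of the 27 had a count somewhere in the epididymis. The second holds the other 116, called shared, which by that definition had counts in CAUDA-NR 1 or CAUDA-NR 2. Every shared entry also had counts in at least 1 CAPUT-NR library. Of all 143, 93 had counts in each of the 5 measured NR epididymal libraries and 14 had none in any of the 11 epididymal libraries.

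The cauda-sparse entries were few. Ranked among the 143 alone, they included the most abundant in the NR testis and 4 of the 10 most abundant. Together they gave 2318 and 1224 counts from TESTIS-NR 1 and 2, and all 27 were present in both libraries. Their summed share was 0.892% and 0.824% of the piRNA counts, so the NR replicates were close in the sum, of which pir-tup-51371 alone held a large part. Single entries were less even: 10 of the 27 had the higher CPM in the first NR testis and 17 in the second.

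pir-tup-51371 was the most abundant of the 143 in TESTIS-NR, with 1036 and 698 counts in TESTIS-NR 1 and 2. It had 0 counts in each TESTIS-R library. Its TESTIS-NR level was 4343 ± 505 CPM (SD, n = 2). At that share the TESTIS-R depth would have given 64203 counts, and at its TESTIS-NR 1 level per miRNA count 2571 counts. Outside the testis it had 18 counts in CAUDA-NR 3 and 13 in CAPUT-NR 1 and was at 0 in the other 9 epididymal libraries.

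The entry numbered next to it, pir-tup-51372, repeated this distribution at a lower level. It had 60 and 40 counts in TESTIS-NR, 3 in CAUDA-NR 3 and 2 in CAPUT-NR 1, and 0 counts elsewhere. pir-tup-5145 was uneven between the NR testes, with 513 counts in TESTIS-NR 1 but 77 in the other library, and its TESTIS-R counts were 2, 0 and 0. It had 39 counts in CAUDA-NR 3, 1 in CAPUT-NR 1 and 1 in CAPUT-R 1. pir-tup-44042 was even, at 578.1 ± 77.6 CPM (SD, n = 2) from 136 and 94 counts, and its only epididymal counts were 2 in CAUDA-NR 3.

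The next 5 entries had 0 counts in all 11 epididymal libraries and the highest TESTIS-NR levels of that kind. pir-tup-41477 had 12 and 34 counts in the NR testes. pir-tup-58778 had 28 and 24, pir-tup-28326 had 27 and 22, pir-tup-44041 had 13 and 24, and pir-tup-5147 had 34 and 7. Each was seen in both NR testes, and in TESTIS-R a single count was found, of pir-tup-28326 in TESTIS-R 3. For scale, a count of 0 allows up to 26.2 CPM in CAUDA-NR 1 and up to 320.3 CPM in CAPUT-R 2, so absence from the shallow caput libraries says little.

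The definition leaves CAUDA-NR 3 as the only NR cauda library in which cauda-sparse entries could appear. It had 93 counts at 12 of the 27, or 0.138% of its piRNA counts. CAPUT-NR 1 had 18 counts at 5 of them, and CAPUT-NR 2 had none. The 6 R epididymal libraries had 2 counts in all, 1 in CAPUT-R 1 and 1 in CAUDA-R 3, although each held counts at 2582 or more entries of the table. CAUDA-NR 3 is also the NR cauda library with the most entries detected, and the part this plays was not tested.

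**Figure D2:**
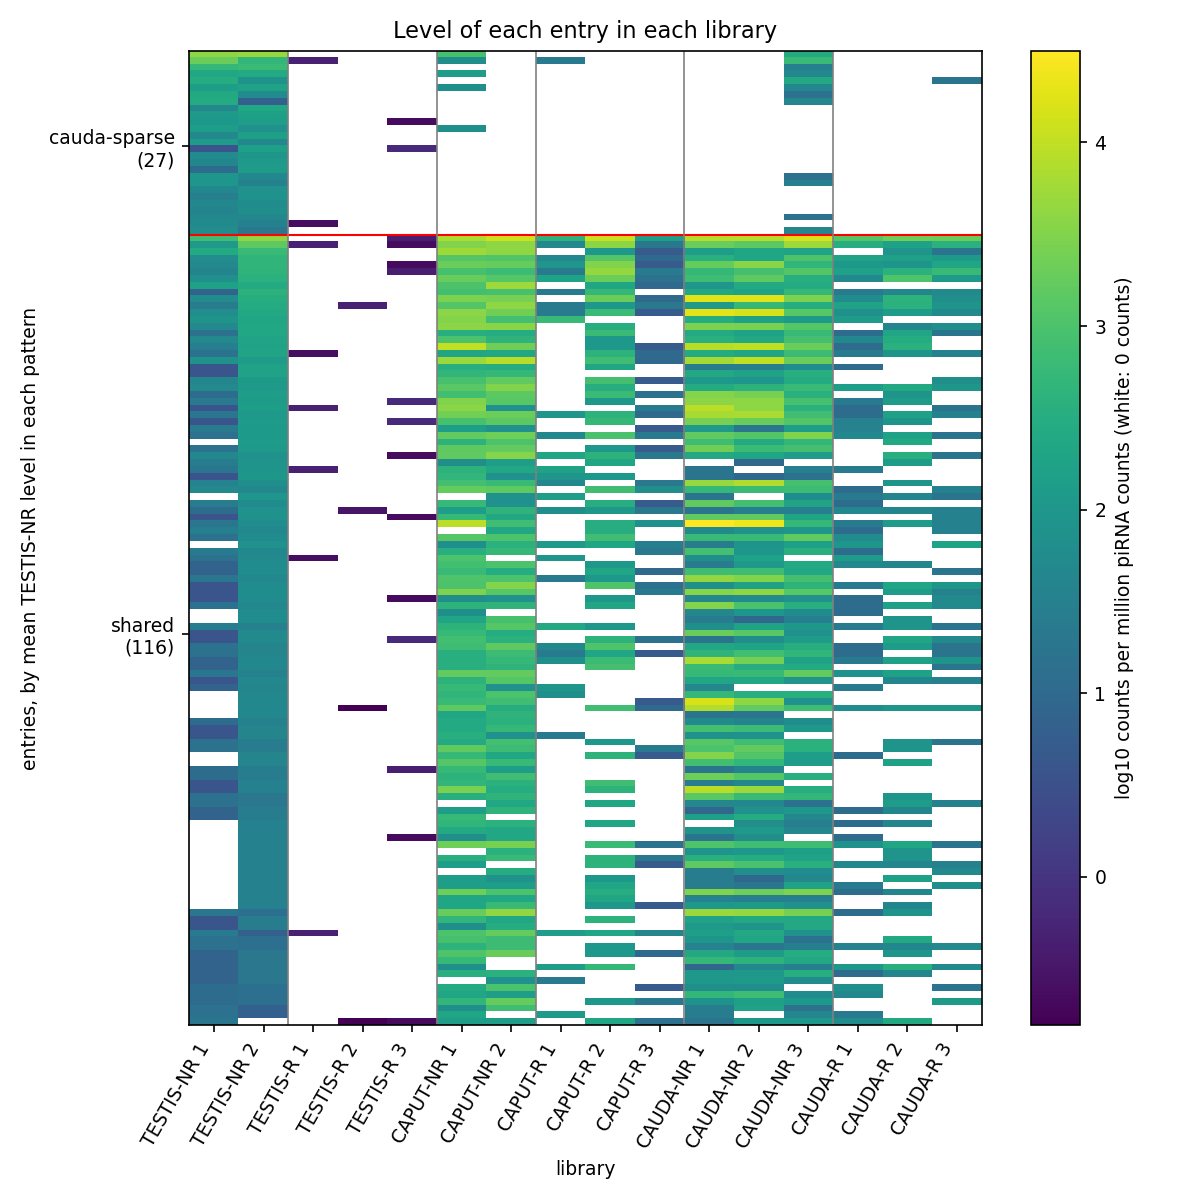
Level of each of the 143 entries (lines of the map) in each measured library (columns), as log10 CPM on the colour scale, white for 0 counts; the red line separates the 27 cauda-sparse entries above from the 116 shared entries below, each ordered by mean TESTIS-NR level. The cauda-sparse block is filled in TESTIS-NR and in part of CAUDA-NR 3, while the shared block is filled in all NR libraries and patchy in CAPUT-R and CAUDA-R.

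The shared entries had more counts in the NR epididymis than in the testis that chose them. They took 13.2% and 12.8% of the piRNA counts in CAPUT-NR 1 and 2, and 22.0%, 17.6% and 7.05% in CAUDA-NR 1, 2 and 3. In TESTIS-NR they took 0.303% and 1.61%. The testis replicates were thus unequal: 108 of the 116 had the higher CPM in TESTIS-NR 2, and 24 were at 0 in TESTIS-NR 1 where 1 was at 0 in the other library. Among the shared entries with counts in both libraries the median level was 3.94-fold higher in TESTIS-NR 2. The same median was 1.21-fold for the cauda-sparse entries and 1.17-fold over the 10409 entries of the table with a TESTIS-NR sum of at least 5 and counts in both. The difference between the 2 NR testes was therefore larger for the shared entries than for the table as a whole, with 1 animal on each side and no test.

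**Figure D3:**
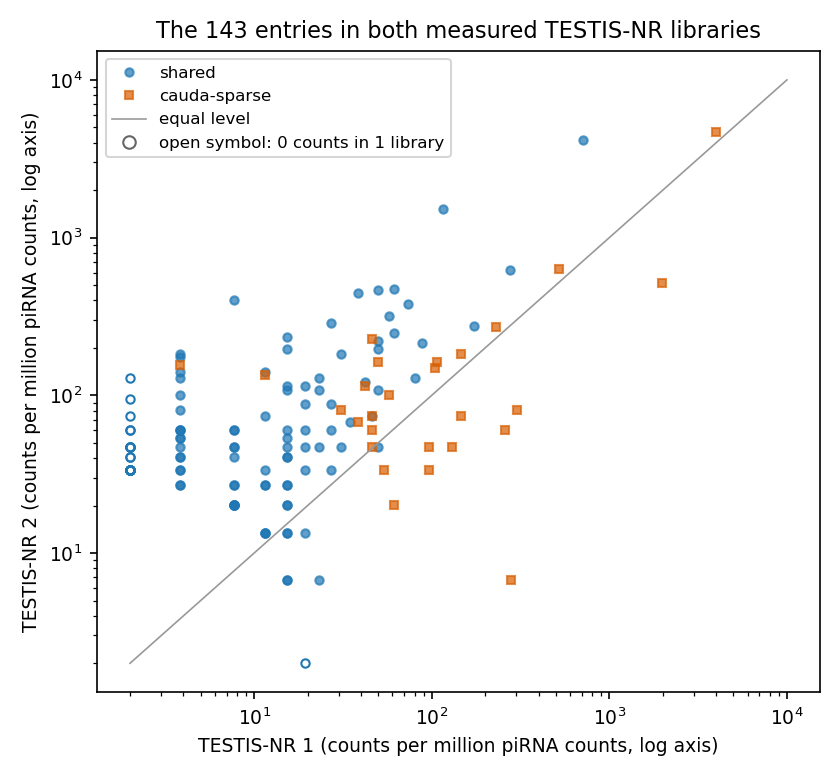
Level of the 143 entries in TESTIS-NR 1 (x axis) and TESTIS-NR 2 (y axis), in CPM on log axes, circles for shared and squares for cauda-sparse entries, open symbols for entries with 0 counts in 1 library, the line marking equal levels. Most circles lie above the line, while the squares scatter on both sides of it.

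The most abundant shared entries of the testis show this imbalance. pir-tup-27564 had 184 counts in TESTIS-NR 1 but 616 in the other library, or 708.0 and 4148 CPM. pir-tup-10668 had 30 and 227 counts, or 115.4 and 1529 CPM. pir-tup-10671 had 16 and 70, pir-tup-9535 had 13 and 69, and pir-tup-27566 had 10 and 66 counts. pir-tup-9447 was nearer to even, with 72 and 92 counts. All 6 were higher in TESTIS-NR 2 relative to its total, and over the 3 TESTIS-R libraries they had between 0 and 3 counts each.

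The next question was whether the entries also differed between seasons in the cauda. They were lower in R: together they held 22.0%, 17.6% and 7.19% of the piRNA counts in CAUDA-NR 1, 2 and 3 and 0.435%, 1.20% and 0.552% in CAUDA-R 1, 2 and 3. The groups did not overlap, and the mean share of 15.6% ± 7.61 (SD, n = 3) in NR was 21.3 times the 0.731% ± 0.414 (SD, n = 3) of R. Per 1000000 miRNA counts the values were 3857, 1442 and 733.8 in NR and 38.1, 40.1 and 41.1 in R. On that scale the 3 R libraries were nearly equal, and the fold was 50.6. The Wilson 95% interval of the lowest NR share, that of CAUDA-NR 3, was 7.00% to 7.39%. The entries were chosen with earlier results known, so these sums carry no test.

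Entry by entry, 128 of the 143 had a count in at least 1 cauda library. In 76 of these 128 (59.4%) every CAUDA-NR library had a higher CPM than every CAUDA-R library, where 1.06% of the 25130 entries with a cauda count had that order. An entry can have that order only with a count in every CAUDA-NR library. CAUDA-NR 1 had counts at only 626 entries of the table but at 114 of the 143, so detection alone sets the 2 shares apart in part. The opposite order was found for 3 of the 128 (2.34%), against 7.87% of the table. Among entries with at least 20 counts over both seasons the same orders held for 72 of 95 and for 1 of 95, against 11.2% and 40.1% of the 2156 such entries in the table. The cut sums both seasons, and the 143 had 48451 counts in CAUDA-NR against 973 in CAUDA-R. Members therefore passed it mainly through NR, so the lean of the table towards R and of these entries towards NR is a description. On the scale of miRNA counts 90 of the 128 had every NR library above every R library, against 1.22%, with the same limit of detection.

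The 3 entries in the opposite order had few counts, and they are named here after their values had been seen. pir-tup-10390 had 1, 5 and 2 counts in CAUDA-NR and 9, 8 and 3 in CAUDA-R. pir-tup-21077 had 2, 3 and 2 in NR and 4, 1 and 2 in R. pir-tup-28990 had 4, 2 and 2 in NR and 3, 1 and 3 in R. In the last 2 the raw counts did not differ in any clear way, and the order comes from the smaller R totals.

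edgeR's quasi-likelihood test over the whole cauda table tested 890 entries, of which 8.54% were called lower and 0 higher in R at an adjusted p under 0.05. The filter on low counts left 61 of the 143 in the test, and of these 36 were called lower and 0 higher. No cauda-sparse entry was among the 61, a pattern defined by 0 counts in CAUDA-NR 1 and 2, so the 36 could only be shared entries. The groups of each of the 36 did not overlap, and 9 of them had 0 counts in CAUDA-R. Of the 61, 59 reached the filter level in all 3 CAUDA-NR libraries and 3 in all 3 CAUDA-R libraries. Most of those tested therefore had to differ, and the count is a description. The median log2 change of the 61 was -6.77, or -6.59 with entries at 0 set to the floor of 3 counts, beside 1.13 over all 890. All 61 were below 0, and 60 of 61 with library totals. That fit called 9 of the 61 lower, against 31 of all 890 entries. Library totals moved the median of all entries to 2.57 and that of the 61 to -4.57. The scaling of the main fit (TMM) multiplied the totals by 0.619, 0.154 and 1.03 in CAUDA-NR 1, 2 and 3. In CAUDA-R 1, 2 and 3 the factors were 2.23, 2.08 and 2.20. The sizes of change given for the cauda therefore depend on the scaling.

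The number of calls rested on single libraries. Without CAUDA-R 1 or CAUDA-R 3 it was 0, with 43 members at an unadjusted p under 0.05 in each case. Without CAUDA-NR 2 it was 7 of 62 and without CAUDA-R 2 it was 19 of 73. Without CAUDA-NR 1 it was 55 of 63 and without CAUDA-NR 3 it was 69 of 71. Over all entries tested, these 4 fits called 15 of 1210, 42 of 1251, 115 of 1213 and 1047 of 1446, in the same order. In the fit without CAUDA-NR 3, 846 entries were called higher and 201 lower in R. Neither the fit nor any alternative run for it called a member higher in R.

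None of the 36 called entries reached the filter level in all 3 CAUDA-R libraries, so none passed the filter without its NR levels. Single R libraries did reach it, such as CAUDA-R 2 for pir-tup-6232, at 383 CPM against a cut of 132. The adjusted p-values below describe the fit and are no independent support. pir-tup-6231 had the highest NR cauda level among the entries called, with 3610, 2443 and 36 counts in CAUDA-NR 1, 2 and 3 and 2, 3 and 2 counts in CAUDA-R. CAUDA-NR 3 lay far below the other NR libraries but above all R libraries. The log2 change was -10.24 (SE 2.28, edgeR adjusted p 0.00124), and leaving out 1 library at a time gave -11.30 to -9.06. With library totals it was -7.29. The entry with the next number, pir-tup-6232, had 964, 1033 and 139 counts in NR against 1, 9 and 0, a log2 change of -7.87 (SE 2.12, adjusted p 0.00821).

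pir-tup-9529, pir-tup-9534 and pir-tup-9539, which carry neighbouring numbers, were alike in the cauda. pir-tup-9539 had 1969, 1782 and 187 counts in CAUDA-NR against 5, 10 and 4, a log2 change of -8.13 (SE 2.10, edgeR adjusted p 0.00535). pir-tup-9529 had 2218, 1604 and 87 in NR against 6, 3 and 3, a log2 change of -9.11 (SE 2.19, adjusted p 0.00257). pir-tup-9534 had 735, 693 and 51 in NR against 1, 4 and 2, a log2 change of -8.16 (SE 2.18, adjusted p 0.00757). In each, CAUDA-NR 3 was the lowest NR library and still lay above all R libraries.

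A pair of abundant entries had 0 counts in all CAUDA-R libraries. pir-tup-9465 had 687, 1064 and 137 counts in CAUDA-NR and was at least 336-fold lower in R over the floor of 3 counts in the group (edgeR adjusted p 0.000652). That bound was 166 without CAUDA-R 1, 217 without CAUDA-R 3 and 223 without CAUDA-NR 2. pir-tup-9579 had 955, 539 and 21 counts in NR and was at least 255-fold lower (adjusted p 0.000883). Its bound was 126 without CAUDA-R 1, 151 without CAUDA-NR 1 and 165 without CAUDA-R 3. pir-tup-1381 had 1008, 412 and 26 counts in NR against 1, 0 and 1, a log2 change of -9.98 (SE 2.39, adjusted p 0.00257).

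All 8 of these entries lost their call without CAUDA-R 1 (adjusted p 0.112 to 0.227) and without CAUDA-R 3 (0.0749 to 0.242), and pir-tup-6232 and pir-tup-9534 also without CAUDA-NR 2. For the 6 with CAUDA-R counts the log2 change stayed between -11.30 and -6.34 whichever library was left out. With library totals it was smaller, -7.43 to -4.87, and pir-tup-6231 stood at -7.29. Over all alternatives the adjusted p of the 8 ran from 5.04e-07 to 0.324.

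**Figure D4:**
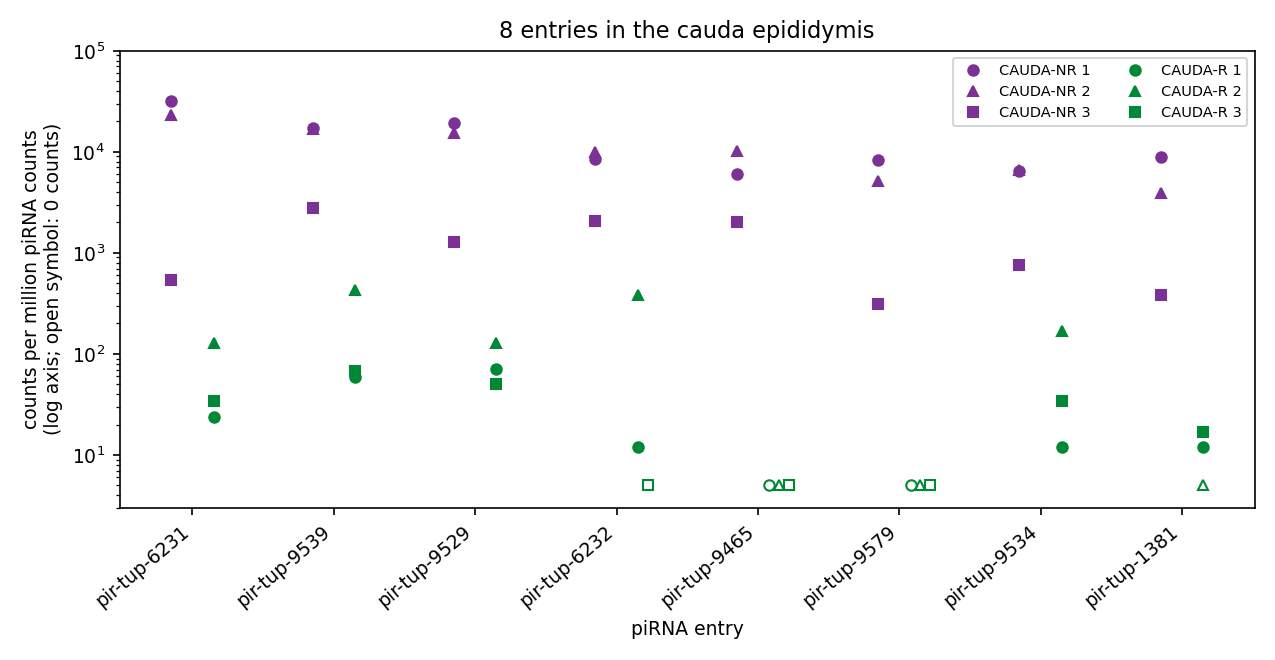
CPM (log axis) of the 8 entries with the highest CAUDA-NR means among those called lower in R, in 3 CAUDA-NR and 3 CAUDA-R libraries, 1 symbol per library and open symbols for 0 counts. For each entry the 3 NR symbols lie above the 3 R symbols, and CAUDA-NR 3 is the lowest of the NR libraries.

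The caput showed the same direction with more spread. The entries held 13.3% and 12.8% of the piRNA counts in CAPUT-NR 1 and 2 and 0.361%, 5.21% and 0.0921% in CAPUT-R 1, 2 and 3. The groups did not overlap, with means of 13.1% ± 0.342 (SD, n = 2) and 1.89% ± 2.88 (SD, n = 3), 6.93-fold higher in NR. CAPUT-R 2, the shallowest library, set this value: without it the fold was 57.8. Its Wilson 95% interval was 4.78% to 5.68%. Per 1000000 miRNA counts CAPUT-NR 1 had 169.5 and the CAPUT-R libraries had 10.6, 59.2 and 15.5, and the miRNA column of CAPUT-NR 2 is an average.

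Of the 121 entries with a caput count, 74 (61.2%) had both NR libraries above all R libraries, against 0.991% of the 25743 entries of the table with a caput count. That order needs a count in both CAPUT-NR libraries. CAPUT-NR 2 had counts at only 736 entries of the table but at 109 of the 143, so detection alone sets the 2 shares apart in part. None of the 121 had the opposite order, which 3.9% of the table had. With at least 20 counts over both seasons the orders held for 43 of 56 and 0 of 56, against 4.23% and 33.2% of 2056 entries. The 143 had 3624 counts in CAPUT-NR against 825 in CAPUT-R, so members again passed this cut mainly through NR. edgeR tested 220 entries and called 3.18% lower and 0 higher in R. Of the 143, 40 passed the filter, 5 were called lower and 0 higher, and 22 were lower at an unadjusted p under 0.05. As in the cauda the filter was passed through NR levels, by 38 of the 40, and by 0 through R. The median log2 change of the 40 was -3.92 beside 2.22 over all 220, and 39 were below 0 with each of the 3 scalings.

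The 5 entries called in the caput were also present throughout the NR cauda. They too were tested only through their NR levels, so their adjusted p-values describe the fit. pir-tup-41772 had 27 and 59 counts in CAPUT-NR and 0 in CAPUT-R, at least 261-fold lower over the floor of 3 counts in the group (edgeR adjusted p 0.0296). Its bound was 156 without CAPUT-NR 2 and 55.5 without CAPUT-R 3. In the cauda it had 571, 482 and 175 counts in NR and 1, 2 and 0 in R, and was called there too (adjusted p 0.00464).

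pir-tup-5584 had 24 and 22 counts in CAPUT-NR and 0 in CAPUT-R, at least 137-fold lower (edgeR adjusted p 0.0386), or 29.3-fold without CAPUT-R 3. In the cauda it had 63, 63 and 115 counts in NR and 7, 4 and 0 in R, and it was not called (adjusted p 0.158). pir-tup-6232 had 145 and 30 counts in CAPUT-NR and 0, 1 and 1 in CAPUT-R (adjusted p 0.0469). pir-tup-9447 had 81 and 56 against 0, 1 and 1 (adjusted p 0.0469), and pir-tup-1382 had 45 and 18 against 0, 1 and 0 (adjusted p 0.0469). These calls were fragile: without CAPUT-R 3 the number of calls was 0, without CAPUT-R 1 it was 3 and without CAPUT-R 2 it was 57 of 57. Without CAPUT-R 2, 160 of all 427 entries tested were called, 133 lower and 27 higher in R. Leaving out a CAPUT-NR library left a single library in that group, so its calls are not given. DESeq2 called 0 members and 0 of all 25743 entries, and library totals left 1, the only call among 220 entries.

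Some shared entries remained visible in the R epididymis. pir-tup-27564 had the highest R epididymal mean of all 143, with 18, 108 and 32 counts in CAPUT-R and 107, 51 and 121 in CAUDA-R. It had 100 and 168 counts in CAPUT-NR and 876, 840 and 999 in CAUDA-NR, and its log2 change was -4.04 in the cauda (SE 1.75, edgeR adjusted p 0.185) and -1.54 in the caput (SE 1.94, adjusted p 0.475). pir-tup-27566 had 1, 43 and 5 counts in CAPUT-R and 14, 9 and 34 in CAUDA-R, against 13 and 9 in CAPUT-NR and 62, 89 and 81 in CAUDA-NR. It was the 1 entry of the 40 tested in the caput with a change above 0 (log2 0.58, SE 1.84, adjusted p 0.759).

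pir-tup-10668 had 2, 36 and 4 counts in CAPUT-R and 26, 4 and 22 in CAUDA-R, against 44 and 52 in CAPUT-NR and 225, 149 and 354 in CAUDA-NR. pir-tup-9535 had 4, 29 and 1 in CAPUT-R and 9, 2 and 12 in CAUDA-R, against 205, 382 and 32 in CAUDA-NR, where it was called lower (log2 change -6.12, SE 2.02, edgeR adjusted p 0.0353). pir-tup-9536 had 8, 19 and 3 in CAPUT-R and 4, 26 and 7 in CAUDA-R, against 82, 160 and 22 in CAUDA-NR. In all 5 the highest CAPUT-R level per total was that of CAPUT-R 2. Over the whole set 28 entries had counts in each CAUDA-R library and 15 in each CAPUT-R library, where 103 had counts in each CAUDA-NR and 103 in each CAPUT-NR library.

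The thresholds of the testis rule were also applied to the epididymis. Of the 115 entries with at least 5 counts over CAUDA-NR, 61 (53.0%) had at most 3 over CAUDA-R, against 23.8% of the 2682 entries of the table. With members of at least 10 TESTIS-NR counts the cauda share was 35.6%. In the caput 48 of 101 (47.5%) did so, against 42.7% of 417, which is close to the background. Depth favours NR in the cauda (286638 counts over the group against 166217 in R) and R in the caput (27692 against 248278).

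Within the NR season the comparison of cauda with caput depended on the model. Of 96 tested, 0 were called by edgeR, as were 0% of the 463 entries tested, with 10 of the 96 higher and 5 lower in the cauda at an unadjusted p under 0.05. DESeq2 also called 0. Without CAUDA-NR 3 edgeR called 8 of 89, of which 7 were higher in the cauda, and 17 of all 313 entries tested, of which 14 were higher. With the replicate number as a block 15 of the 96 were called, 14 higher and 1 lower in the cauda. Of all 463 entries the block called 37, 28 higher and 9 lower, so the table leaned the same way. The median log2 change of the 96, cauda minus caput, was 0.72 beside 0.78 over all 463, and -0.17 beside 0.03 with library totals. The NR libraries of this comparison also serve the season comparisons above.

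The names of the entries carry running numbers, and the members were not spread evenly over them. Of the shared entries 85.3% had a number under 12000, against 11.1% of the cauda-sparse ones and 20.1% of all entries. The cut was chosen after the numbers had been seen. Of the 116 shared entries 48 had another shared entry numbered 1 away, and of the 27 cauda-sparse ones 9 had another of their kind, such as pir-tup-51370, pir-tup-51371 and pir-tup-51372. What the numbers stand for is not given in the sources used here, and the sequences and genome positions of the entries were not analysed here, so entries that share sequence, and therefore reads, could not be told from separate ones.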

How the data were processed

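Small RNA libraries of testis, caput and cauda were measured in both seasons. The authors deposited raw piRNA and miRNA counts, 1 column per library, and featureCounts and bedtools are named in the submitters' processing notes. The aligner, genome build and piRNA reference were not given in the sources used here. Of the piRNA columns 2 equalled the mean of the other 2 of their group, as did 2 miRNA columns, and all 4 were left out. The members, patterns and lists were chosen with earlier results of these data known.

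edgeR 4.0.16 (TMM scaling, filterByExpr, quasi-likelihood test, Benjamini-Hochberg adjustment) was fitted in R 4.3.3 over the whole table for each contrast. It was tested on simulated cauda counts at 4 times the real depth and a dispersion of 0.05, both easier than the real libraries may be: of 1354 entries tested, all 200 changed 8-fold were called, with 9 unchanged ones. An entry was called at an adjusted p under 0.05. P-values measure the spread between these samples only. Named entries were chosen among the 143. They were the 10 most abundant in TESTIS-NR with counts in both libraries and the 8 most abundant of those called in the cauda. Those called in the caput, the 5 highest in the R epididymis and the 5 highest with 0 epididymal counts were also named. Alternatives were library totals, DESeq2 1.42.0 and its size factors, miRNA totals, no filter, 1 fit over all libraries, a replicate block, stricter member rules and leaving out each library.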

Additional observations from a re-analysis of the deposited data

How the results depend on the processing

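Members called lower in the cauda numbered 36 of 61, where 76 of all 890 entries were called lower. With library totals it was 9 of 61, against 31 of 890. Without the filter edgeR called 0 of 128, against 0 of 25130, with 73 members at an unadjusted p under 0.05. DESeq2 called 44 of 128 lower, against 114 of 25127. In 1 fit over all libraries it was 61 of 115, against 224 of 3357. For members with at least 20 TESTIS-NR counts and both libraries it was 15 of 28. Leaving out a library gave 0 to 69 members, and 0 to 1047 of all entries tested. In the caput 5 of 40 were called, against 7 of all 220 entries, and 1 of 40 with library totals, against 1 of 220. Without the filter it was 0 of 121, and by DESeq2 0 of 121, each against 0 of 25743. In 1 fit it was 40 of 115, against 99 of 3357, and for members with at least 20 counts 3 of 26. Leaving out a CAPUT-R library gave 0 to 57 members, and 0 to 160 of all entries tested. Between cauda and caput of the NR season 0 were called, with 0 to 8 on leaving out a library. In the testis 67 were called, 115 in 1 fit and 27 to 60 on leaving out a library. All these testis calls were lower in R, which the rule fixed, so nothing is read from their number. Of all entries, 208 of 40091 were called lower in the testis, and 265 of 3357 in 1 fit. The low end of the testis range came from a fit with a single TESTIS-NR library and says nothing about robustness. Leaving out a TESTIS-R library gave 50 to 60. With the replicate block 24 were called in the cauda, 0 in the caput and 15 between cauda and caput. Over all entries tested the block called 42, 0 and 37. The labels do not say that equal numbers mark the same animal, and the deviations of equally numbered libraries correlated at -0.07, 0.23 and 0.17 in the cauda, 0.29 and 0.46 in the caput and -0.26 and 0.34 between cauda and caput, so a pairing was not established. The share of members meeting the thresholds in the cauda was 53.0%, and 35.6% for members with at least 10 TESTIS-NR counts. The fold of the summed share in the cauda was 21.3, and 50.6 per miRNA count, with 16.9 to 31.6 on leaving out a library. In the caput it was 6.93, with 4.70 to 57.8. Among 159 alternatives for single named entries 56 lost the call and 0 changed direction. The 159 include the fits without a CAPUT-NR library, which leave a single library in that group, so a number of kept calls is not given. Beyond the leave-outs, the cause of these changes was not tested. Depth limits the caput most, where 40 of the 143 members had enough counts to be tested, and 61 in the cauda.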
